A study of Mus musculus with 8 samples.

Results

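Collagens are secreted or membrane-bound proteins whose chains wind into a triple helix, and each gene named Col followed by a type number, the letter a and a chain number makes a single chain. The genes described here are the 44 of 24539 gene symbols in the table that have such a name. They were measured by RNA sequencing of 8 libraries from mouse kidney at E18.5, in nephron progenitors sorted by the fluorescence of Six2GFPcre. Nephron progenitors are the mesenchymal cells that give rise to nephrons, and Six2GFPcre is a transgene that makes a fusion of GFP and Cre recombinase in cells that express Six2. All embryos carried it, so no group lacks Cre. Smo, a protein of the cell membrane, relays Hedgehog signals into the cell. The KO-labelled group was Smo c/c, with 2 conditional alleles, and the Het-labelled group was Smo c/+, with 1 conditional and 1 wild-type allele. The WT-labelled group was Smo +/+. The SmoM2-labelled group was Smo +/+ with a Rosa26 SmoM2/+ allele. SmoM2 is a constantly active form of Smo, which Cre switches on. Each group had 2 libraries. The labels do not say how many embryos a library came from, so p-values measure the spread between these libraries.

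Fibrillar collagens such as types I, II, III, V, XI and XXVII form the ropes of connective tissue and cartilage. Type IV collagens form the sheet-like network of basement membranes, and multiplexins such as types XV and XVIII sit at its border with the tissue around it. In the kidney, the type IV network is the frame of the glomerular and tubular basement membranes, while types I, III and VI are textbook products of stromal cells and fibroblasts. FACIT collagens (fibril-associated collagens with interrupted triple helices) bind to fibril surfaces, type VI collagens form beaded filaments, and a few collagens span the plasma membrane.

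The counts listed per library summed to between 4422305 and 10305398, and the collagen genes took between 21550 and 56067 of them. Smo, the targeted gene, was at 13.1 and 11.1 CPM in the KO-labelled libraries, 14.4 and 23.9 in the Het-labelled, 363 and 375 in the WT-labelled and 605 and 629 in the SmoM2-labelled libraries. CPM give a count as a share of the scaled library size, and pairs of values are given with replicate 1 first. Smo in the Het-labelled group went against the label, since its level was close to that of the KO-labelled group (edgeR log2 change against WT-labelled -4.28, adjusted p 1.55e-06). All directions below are therefore between libraries as labelled. Six2, which defines the sorted cells, was at 1132 to 2105 CPM. All KO- and Het-labelled libraries, at 1475 CPM or more, lay above all WT- and SmoM2-labelled libraries, at 1333 CPM or less. Against the WT-labelled group, edgeR called Six2 higher in the Het-labelled group (log2 0.65, adjusted p 0.00921) but not in the KO-labelled group (0.42, 0.0600). The 8 nephron progenitor markers summed to 3827 to 5013 CPM in the former and 2990 to 3475 CPM in the latter libraries. The part of this difference in the collagen changes was not tested. Of 4 immune markers Ptprc had at most 1 count in any library, while Cd68 was at 10.8 to 44.8 CPM. Of 7 endothelial markers Pecam1 had at most 3 counts, while Egfl7 was at 7.08 to 17.3 CPM. The sum of 5 early nephron markers was 1143 and 1410.3 CPM in the KO-labelled libraries and 429.6 to 676 CPM in the other 6, with Lhx1 at 62.2 and 122 CPM against at most 10.9 CPM. The part of these cells in the collagen changes of KO-labelled libraries was not tested. Xist had at most 2 counts in the KO-labelled and at least 9663 in the Het-labelled libraries, and in the other groups replicate 1 had at most 5 and replicate 2 at least 12330, so sex and group cannot be told apart between KO- and Het-labelled libraries.

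Of the 44 collagen genes, 39 had enough counts to be tested, and 36 averaged at least 1 CPM. Col6a5, Col10a1, Col17a1, Col19a1 and Col28a1 were not tested, with at most 10 counts in any library. Per length, in the RPKM values deposited by the authors (reads scaled to gene length and library size), 5 genes had the highest means over the 8 libraries. Col2a1, the chain of the main cartilage collagen, ranged from 138 to 229 RPKM over the 8 libraries, and Col26a1, a small collagen first described in testis and ovary, from 114 to 196 RPKM. Col4a2 ranged from 99.1 to 166 RPKM, Col4a1 from 96.7 to 152 RPKM and Col18a1, which carries endostatin at its end, from 39.9 to 80.0 RPKM. The ranges of the first 4 overlapped, and that of Col18a1 lay below all of them. In KO-labelled replicate 1, Col1a1 at 54.2 RPKM lay above Col18a1 at 51.3 RPKM. Across the classes, basement membrane network genes took 40.4% of the summed collagen CPM, fibrillar genes 33.6%, multiplexins 8.76%, FACIT genes 2.74%, transmembrane genes 1.62% and beaded filament genes 1.42%. Col26a1, Col7a1 and Col28a1, outside these classes, took 11.3%. At the other end, the 12 genes under 1 RPKM in every group mean, with no call in any test, reached at most 0.818 RPKM.

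**Figure D1:**
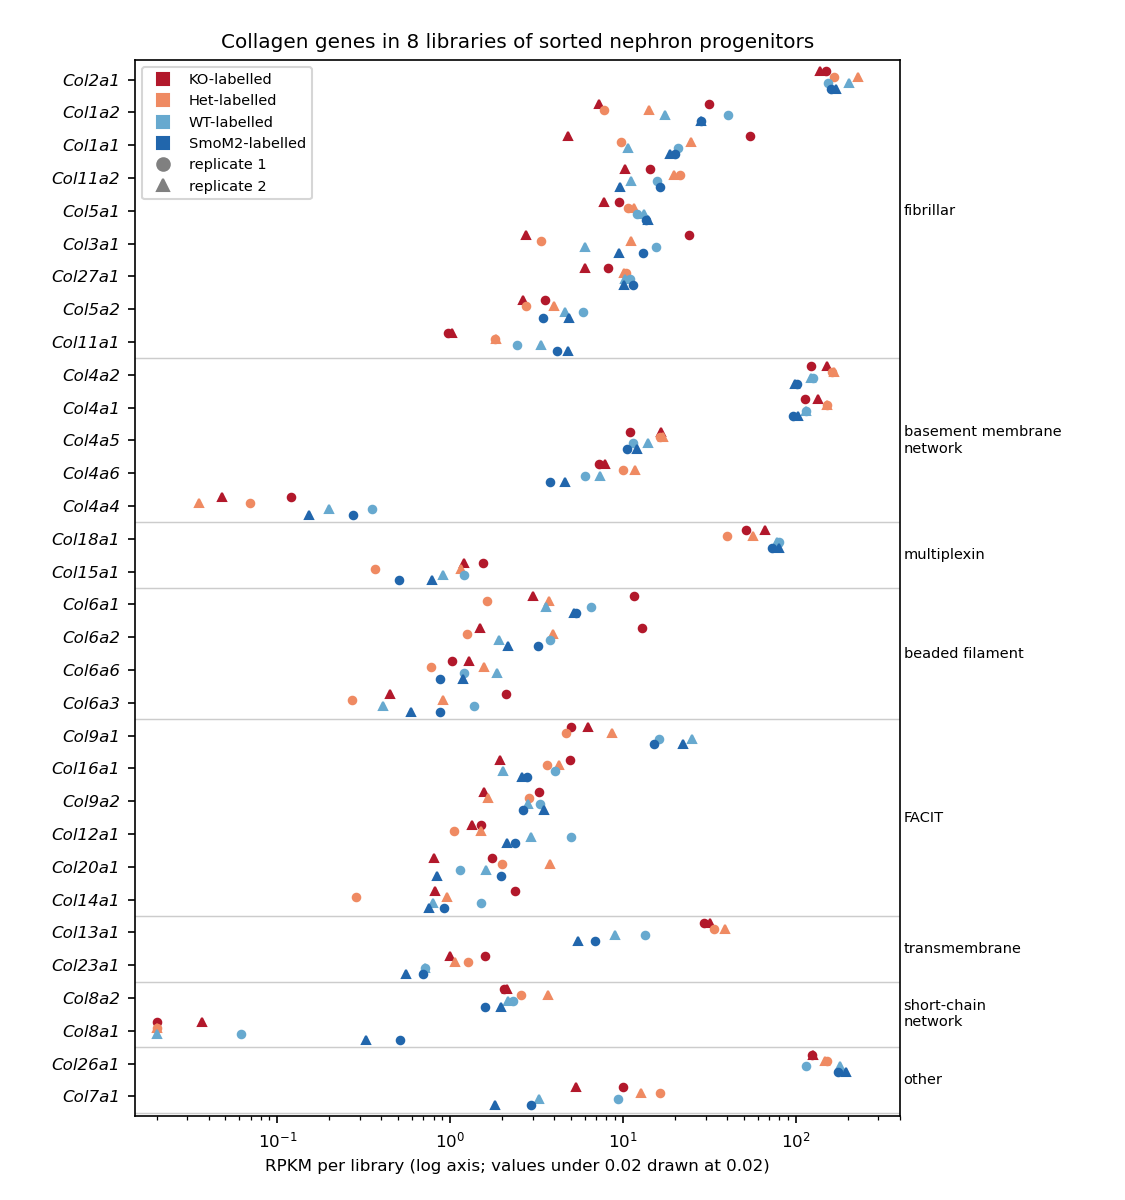
RPKM (log axis) of the 32 collagen genes that reached a group mean of 1 RPKM or a call, in each of the 8 libraries, grouped by class; colours are the groups as labelled, and circles and triangles are replicates 1 and 2. Col2a1, Col26a1, Col4a1 and Col4a2 lie near or above 100 RPKM in every library, while the KO-labelled points of Col1a1 and Col3a1 lie far apart.

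Differences between groups were tested with edgeR's quasi-likelihood test in a model over all 13459 testable genes, with Benjamini-Hochberg adjusted p-values and a threshold of 0.05. Between KO- and WT-labelled libraries 7 of the 39 collagen genes were called, 1 higher and 6 lower, against 23.0% of all genes tested, of which 11.6% were higher and 11.4% lower. That split depended on KO-labelled replicate 2, without which more of the called collagen genes were higher than lower. Between Het- and WT-labelled libraries 10 were called, 5 higher and 5 lower, against 25.3% of all genes (13.1% higher and 12.2% lower). These shares, 17.9% and 25.6% of the collagen genes, lie near the background. The comparisons share the WT-labelled libraries. Between SmoM2- and WT-labelled libraries edgeR called no collagen gene and 0.223% of all genes (0.156% higher and 0.0669% lower), with 6 collagen genes at an unadjusted p under 0.05, and DESeq2 called 1. Without WT-labelled replicate 2, edgeR did call collagen genes in this comparison. The shares of all genes called under these alternatives are not given. Between KO- and Het-labelled libraries 3 were called, all lower in the KO-labelled libraries, against 9.43% of all genes (4.33% higher and 5.10% lower). Without KO-labelled replicate 2, Col6a1 and Col6a2 were called instead, both higher in the KO-labelled libraries. None of the 3 was called without Het-labelled replicate 1, without Het-labelled replicate 2 or without KO-labelled replicate 2, nor with the length trend or the GC and length trends removed, and 1 was called without KO-labelled replicate 1. A test over all 4 groups called 14 collagen genes, against 41.0% of all genes. The median log2 change of the 39 genes was -0.30 in KO- against WT-labelled libraries, where the median of all genes was 0.03. Single libraries moved it, to -0.70 without KO-labelled replicate 1, -0.12 without KO-labelled replicate 2 and -0.16 without WT-labelled replicate 1, and it was -0.13 with the length trend removed. The median was -0.40 in Het- against WT-labelled libraries, beside -0.02 for all genes. It became -0.00019 without Het-labelled replicate 1, -0.13 without WT-labelled replicate 1, -0.13 with a filter of 10 counts in 4 libraries and 0.07 with the stroma markers as a covariate. SmoM2- against WT-labelled libraries gave a median of -0.11, beside 0.003 for all genes, and it was 0.02 without WT-labelled replicate 1 and -0.22 without WT-labelled replicate 2.

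**Figure D2:**
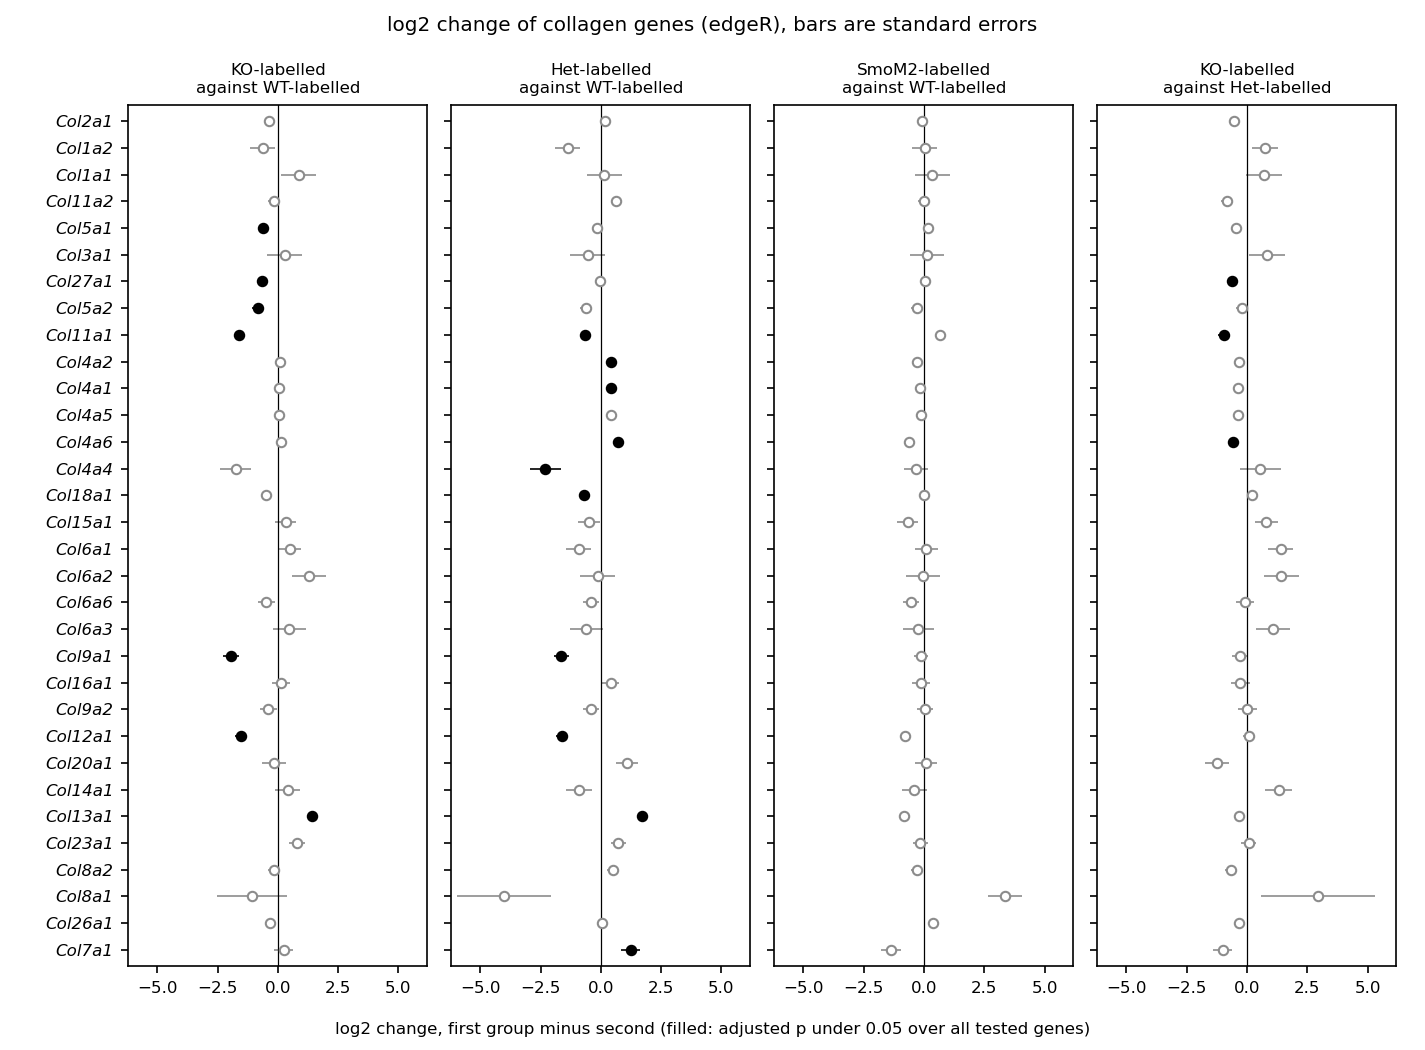
edgeR log2 change of the 32 collagen genes (rows) in 4 comparisons (panels), as the first group minus the second; bars are standard errors, and filled points have an adjusted p under 0.05 over all tested genes. Filled points lie on both sides of 0 in Het- against WT-labelled libraries, and Col13a1 is the filled point to the right of 0 in KO- against WT-labelled libraries.

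The basement membrane network collagens come from 3 pairs of genes that lie head to head. The Col4a1 and Col4a2 transcripts start on opposite strands of chromosome 8 (Col4a1 8:11198423-11312826, minus strand, and Col4a2 8:11312805-11449287, plus strand, mm10), and their annotated exons overlap at their starts by 22 bases. That shared stretch is shown because the levels of both genes were close to each other in every library, with a GC box (GGGCGG) in capitals.
Col4a1 and Col4a2 overlap, chr8:11312805-11312826, plus strand: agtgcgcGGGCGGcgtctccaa
Col4a1 makes the α1 chain, of which a protomer of the widespread network holds a pair, and Col4a2 makes its α2 partner. Col4a1 was at 889 and 1037 CPM in the KO-labelled libraries, 1232 and 1248 in the Het-labelled, 891 and 956 in the WT-labelled and 802 and 851 in the SmoM2-labelled libraries. Col4a2 was at 931 and 1137, 1286 and 1330.3, 960.04 and 996, and 822 and 803 CPM in the same order. For both genes the Het-labelled libraries were the highest and the SmoM2-labelled the lowest, with no overlap between Het- and WT-labelled libraries. The ratio of their RPKM values stayed between 0.887 and 1.03 over the 8 libraries. Col4a1 rose by 0.43 (log2, SE 0.12, edgeR adjusted p 0.0279) and Col4a2 by 0.42 (SE 0.13, edgeR adjusted p 0.0332) in Het- against WT-labelled libraries. In KO- against WT-labelled libraries their log2 changes were 0.06 and 0.08 (edgeR adjusted p 0.756 and 0.678). The Het calls were narrow. With the trends over GC content and gene length removed, Col4a1 was at 0.26 (edgeR adjusted p 0.166) and Col4a2 at 0.17 (0.406), and leaving out any of the Het-, WT- or SmoM2-labelled libraries also ended both calls, with edgeR adjusted p between 0.0509 and 0.194, as did the stroma markers as a covariate (0.0512 and 0.0626).

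Col4a5 and Col4a6 make the α5 and α6 chains, which join in the network of smooth muscle and of certain epithelia, and α5 also joins the mature glomerular network. They lie on the X chromosome with GENCODE M21 start sites 1309 bases apart. The stretch of each RefSeq promoter window before the outermost annotated start is shown because of this pair Col4a6 was called and Col4a5 was not, although the difference between them was not tested. A CCAAT box is in capitals in the first stretch, and none of the 4 motifs searched lies in the second. A promoter window of each of the genes did hold GGGCGG, but not within the stretches shown.
Col4a5 upstream, chrX:141475169-141475369, plus strand: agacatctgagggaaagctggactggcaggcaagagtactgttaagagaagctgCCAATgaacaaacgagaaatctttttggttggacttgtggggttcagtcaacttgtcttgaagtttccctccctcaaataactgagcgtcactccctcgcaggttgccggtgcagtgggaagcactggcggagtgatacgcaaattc
Col4a6 upstream, chrX:141474096-141474326, minus strand: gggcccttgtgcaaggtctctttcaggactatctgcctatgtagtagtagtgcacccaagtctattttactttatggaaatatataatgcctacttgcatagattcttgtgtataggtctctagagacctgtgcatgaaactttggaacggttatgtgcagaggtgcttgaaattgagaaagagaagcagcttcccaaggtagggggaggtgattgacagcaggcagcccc
Col4a6 was at 56.9 and 60.7 CPM in the KO-labelled, 82.1 and 96.3 in the Het-labelled, 47.4 and 61.4 in the WT-labelled and 31.5 and 38.7 in the SmoM2-labelled libraries. The Het-labelled libraries lay above all others and the SmoM2-labelled below all others. Col4a6 rose by 0.71 (SE 0.16, edgeR adjusted p 0.00866) in Het- against WT-labelled libraries and was lower in KO- than in Het-labelled libraries (log2 -0.60, SE 0.16, edgeR adjusted p 0.0425). The first call was lost without Het-labelled replicate 2 (0.58, edgeR adjusted p 0.0909) and without WT-labelled replicate 1 (0.53, 0.0607). In SmoM2- against WT-labelled libraries its log2 change was -0.63 (edgeR adjusted p 0.220). Col4a5 was at 84.1 and 125, 131 and 138, 87.2 and 115, and 85.7 and 98.1 CPM in the same order of groups, and passed no test. Its log2 change in Het- against WT-labelled libraries was 0.41 (edgeR adjusted p 0.125). The RPKM of Col4a5 was 1.46 to 1.91 times that of Col4a6 in the Het- and WT-labelled libraries, 1.51 and 2.11 times in the KO-labelled and 2.79 and 2.60 times in the SmoM2-labelled libraries. Both genes are X-linked and the Het-labelled libraries had Xist in both replicates, and the part of sex in these values was not tested. The third pair, Col4a3 and Col4a4, encodes the remaining chains of the mature glomerular network, and was near the floor of 3 counts. Col4a4 was at 1.11 and 0.44 CPM in the KO-labelled, 0.67 and 0.34 in the Het-labelled, 3.26 and 1.96 in the WT-labelled and 2.66 and 1.5 in the SmoM2-labelled libraries. It was lower in Het- than in WT-labelled libraries (a log2 change of -2.30, edgeR adjusted p 0.0213), a call lost without Het-labelled replicate 1 (-2.92, edgeR adjusted p 0.0717), Het-labelled replicate 2 (-1.97, 0.132) or WT-labelled replicate 1 (-1.88, 0.118), with DESeq2 (0.0550) and with the stroma markers as a covariate (0.0700). Col4a3 reached at most 15 counts.

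Among the 11 fibrillar genes, all tested, 4 were lower and none higher in KO- against WT-labelled libraries, which is 36.4% of them against 11.4% lower of all genes tested, with a class median of -0.61. Of the 4, Col5a1, Col5a2 and Col27a1 lost their calls with the length trend removed. Col11a1, whose chain sits in the core of cartilage fibrils and limits their width, showed the widest change of them. It was at 8.86 and 9.14 CPM in the KO-labelled, 17.2 and 17.7 in the Het-labelled, 22.2 and 32.7 in the WT-labelled and 40.2 and 46.3 in the SmoM2-labelled libraries. The pairs did not overlap and went up in the order KO-, Het-, WT- and SmoM2-labelled. KO- against WT-labelled libraries gave a log2 change of -1.60 (SE 0.23, edgeR adjusted p 0.00106). The change was -0.65 (SE 0.20, 0.0382) in Het- against WT-labelled libraries and -0.95 (SE 0.24, 0.0319) in KO- against Het-labelled libraries. The first kept its call under all 17 alternatives. The second was lost without Het-labelled replicate 1 (edgeR adjusted p 0.144), Het-labelled replicate 2 (0.132) or WT-labelled replicate 2 (-0.37, 0.255). It was also lost with DESeq2 (0.0554), the length trend removed (0.114), the GC and length trends removed (0.139) and the 4 libraries alone (0.0537), 7 of 17 alternatives in all. The third was lost without any single KO- or Het-labelled library (edgeR adjusted p 0.100 to 0.147), and with the length (0.0906) or the GC and length trends removed (0.106). In SmoM2- against WT-labelled libraries the change was 0.66 (edgeR adjusted p 0.313).

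The partners of Col11a1 did not share this order. Col11a2, the α2 chain of the same fibrils, was at 112 and 78.8 CPM in the KO-labelled, 174 and 162 in the Het-labelled, 122 and 92.6 in the WT-labelled and 136 and 79.7 in the SmoM2-labelled libraries. It was highest in the Het-labelled libraries, and passed the test over all 4 groups narrowly (edgeR adjusted p 0.0483) and no pairwise test in the model of all 8 libraries. The call over all 4 groups was lost with the RPKM totals, with the GC and length trends removed, and without KO-labelled replicate 2 or either Het-labelled library. DESeq2, the replicate block, the 4 libraries alone and the stroma markers as a covariate each called Col11a2 higher in Het-labelled libraries, both against WT- and against KO-labelled libraries. The RPKM of Col11a2 was 14.7 and 10.1 times that of Col11a1 in the KO-labelled, 11.8 and 10.7 times in the Het-labelled, 6.42 and 3.31 times in the WT-labelled and 3.94 and 2.01 times in the SmoM2-labelled libraries. Col2a1, whose product is the bulk of cartilage fibrils, was at 909.6 and 821 CPM in the KO-labelled, 1046 and 1459 in the Het-labelled, 932 and 1316 in the WT-labelled and 1030.3 and 1094 in the SmoM2-labelled libraries. Its KO-labelled values lay below all others, with a log2 change of -0.38 against WT-labelled libraries (edgeR adjusted p 0.163), and it passed no test.

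Type V collagen starts fibril formation and joins type I fibrils, and type XXVII is a fibrillar collagen of cartilage. Col5a1 was at 93.7 and 76.0 CPM in the KO-labelled, 111 and 120.1 in the Het-labelled, 119 and 139.6 in the WT-labelled and 142 and 146 in the SmoM2-labelled libraries. Col5a2, which encodes the partner chain, was at 27.5 and 20.3, 22.2 and 32.6, 45.8 and 38.4, and 28.3 and 40.3 CPM. Col27a1 was at 73.5 and 53.3, 97.3 and 96.1, 98.5 and 99.4, and 108 and 97.2 CPM. For Col5a1 and Col27a1 the KO-labelled libraries were the lowest of all, while for Col5a2 the Het-labelled values lay in the same range. All 3 genes fell in KO- against WT-labelled libraries, Col5a1 by 0.61 (SE 0.14, edgeR adjusted p 0.0111), Col5a2 by 0.82 (SE 0.24, 0.0302) and Col27a1 by 0.64 (SE 0.15, 0.0129). Col27a1 was also lower in KO- than in Het-labelled libraries (log2 -0.61, edgeR adjusted p 0.0326). With each library's trend over gene length removed, the KO- against WT-labelled changes became -0.21 for Col5a1 (edgeR adjusted p 0.376), -0.53 for Col5a2 (0.18) and -0.28 for Col27a1 (0.257). Without KO-labelled replicate 2 they were -0.47 (edgeR adjusted p 0.0608), -0.62 (0.162) and -0.44 (0.0641). With the GC and length trends removed, Col5a1 was at -0.37 (edgeR adjusted p 0.0746) and Col5a2 at -0.56 (0.157), and with the stroma markers as a covariate Col5a2 was at -0.67 (0.0684). Col5a1 also lost its call without WT-labelled replicate 2 (-0.52, edgeR adjusted p 0.0511), and Col5a2 without KO-labelled replicate 1 (-1.06, 0.0559) or WT-labelled replicate 1 (-0.69, 0.114). Parts of Col5a1 overlap 2 annotated transcripts on the opposite strand, by 99 and 113 exonic bases, and no source used here states the strand setting of the counting.

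The type I and type III genes differed widely between the replicates of a group. Col1a1, the α1 chain of the main collagen of bone, skin and stroma, was at 379.5 and 32.9 CPM in the KO-labelled, 70.4 and 181 in the Het-labelled, 145 and 80.4 in the WT-labelled and 148 and 138 in the SmoM2-labelled libraries. Col1a2 was at 193 and 44.2, 49.5 and 91.4, 248 and 114, and 184 and 185 CPM, and Col3a1 at 158 and 17.6, 23.0 and 76.3, 101 and 42.0, and 90.5 and 66.0 CPM. In the KO-labelled group replicate 1 was the higher, in the Het-labelled group replicate 2. None of the 3 genes passed a test in the model of all 8 libraries. Col1a2 had a log2 change of -1.37 (SE 0.52, edgeR adjusted p 0.0762) in Het- against WT-labelled libraries, with no overlap between them. In this comparison it was called with no filter on low counts, with the 4 libraries alone and with the stroma markers as a covariate. For Col1a1, the log2 value of KO- against WT-labelled libraries of 0.87 had an SE of 0.73 (edgeR adjusted p 0.419). It became -1.78 (edgeR adjusted p 0.0680) without KO-labelled replicate 1 and 1.74 (0.0248) without KO-labelled replicate 2, so a single library sets its sign. Col1a1 and Col1a2 did not keep a fixed ratio, with RPKM of Col1a1 between 0.516 and 1.75 times those of Col1a2.

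Among the FACIT genes, Col9a1 and Col12a1 were lower in KO- and in Het- than in WT-labelled libraries. Col9a1, part of the collagen that coats type II fibrils, was at 24.4 and 30.3 CPM in the KO-labelled, 23.9 and 44.2 in the Het-labelled, 78.7 and 131 in the WT-labelled and 78.5 and 116 in the SmoM2-labelled libraries. Col12a1, which binds type I fibrils, was at 20.8 and 18.3, 15.1 and 21.9, 69.3 and 43.2, and 34.9 and 31.4 CPM. For both genes all KO- and Het-labelled libraries lay below all WT- and SmoM2-labelled libraries. Col9a1 fell by 1.94 (log2, SE 0.32, edgeR adjusted p 0.00199) in KO- and by 1.63 (SE 0.30, 0.00341) in Het- against WT-labelled libraries. Col12a1 fell by 1.53 (SE 0.25, edgeR adjusted p 0.0019) and by 1.62 (SE 0.24, 0.00112). All 4 calls held under all 17 alternatives. In SmoM2- against WT-labelled libraries the changes were -0.11 for Col9a1 (edgeR adjusted p 0.976) and -0.76 for Col12a1 (0.314). Of Col12a1 the call was made without WT-labelled replicate 2 (-1.05, edgeR adjusted p 0.0474). The other chains of type IX collagen, Col9a2 and Col9a3, passed no test. Col9a2 ranged from 5.01 to 12.0 CPM with log2 changes of -0.39 in KO- and -0.41 in Het- against WT-labelled libraries (edgeR adjusted p 0.455 and 0.403), and the RPKM of Col9a1 was between 1.52 and 8.87 times that of Col9a2. Col14a1, Col16a1 and Col20a1 lay between 0.287 and 4.93 RPKM and passed no test. Of 8 FACIT genes tested, 2 were called in KO- and in Het- against WT-labelled libraries, both lower, or 25% against 23.0% and 25.3% of all genes.

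Col13a1 encodes a transmembrane collagen found at sites where cells attach to the matrix and at the neuromuscular junction. It had the lowest adjusted p of the collagen genes in KO- and in Het- against WT-labelled libraries. The stretch of its RefSeq promoter window before the outermost annotated start is therefore shown, with the TATA box letters TATAAA in capitals. They lie near the end of the stretch that is far from that start, and whether they work as a TATA box was not tested.
Col13a1 upstream, chr10:61979207-61979358, minus strand: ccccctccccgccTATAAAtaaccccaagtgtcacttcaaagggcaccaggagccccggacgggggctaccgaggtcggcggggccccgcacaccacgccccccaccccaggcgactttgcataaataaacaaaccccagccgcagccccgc
Its level was 110.3 and 117 CPM in the KO-labelled, 129.9 and 152 in the Het-labelled, 49.7 and 35.9 in the WT-labelled and 27.3 and 21.7 in the SmoM2-labelled libraries. Every KO- and Het-labelled library lay above every WT-labelled library, and these lay above the SmoM2-labelled libraries. As means, the groups were at 114 ± 4.70, 141 ± 15.4, 42.8 ± 9.72 and 24.5 ± 3.94 CPM (SD, n = 2). Col13a1 rose by 1.40 (SE 0.17, edgeR adjusted p 0.000451) in KO- and by 1.71 (SE 0.17, 0.000119) in Het- against WT-labelled libraries, and both calls held under all 17 alternatives. SmoM2- and WT-labelled libraries differed by -0.80 (SE 0.18) and missed the threshold (edgeR adjusted p 0.132). The difference passed with DESeq2 (adjusted p 0.0149) and with edgeR without WT-labelled replicate 2 (0.0326). Col23a1, another transmembrane collagen, was between 6.53 and 10.6 CPM in the KO- and Het-labelled and between 3.93 and 5.12 CPM in the WT- and SmoM2-labelled libraries. Its log2 changes of 0.80 and 0.73 against WT-labelled libraries did not pass the threshold (edgeR adjusted p 0.0901 and 0.103).

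Of the remaining genes, Col7a1, Col18a1 and Col8a1 were called in at least 1 test. Col7a1 makes the anchoring fibrils that tie basement membranes to the tissue below. It was at 108 and 57.3 CPM in the KO-labelled, 184 and 146 in the Het-labelled, 102 and 37.7 in the WT-labelled and 33.5 and 21.0 in the SmoM2-labelled libraries. The Het-labelled libraries lay above all others, and the WT-labelled replicates were 2.69-fold apart. Col7a1 rose by 1.24 (SE 0.39, edgeR adjusted p 0.0374) in Het- against WT-labelled libraries, and lost this call without WT-labelled replicate 2 (0.68, edgeR adjusted p 0.162), Het-labelled replicate 1 (1.03, 0.164) or Het-labelled replicate 2 (1.38, 0.0740). It was also lost with DESeq2 (1.25, adjusted p 0.131) and with the GC and length trends removed (0.97, edgeR adjusted p 0.100). Col18a1 was at 351 and 443, 284 and 407, 543 and 568, and 526 and 582 CPM, so that all KO- and Het-labelled libraries lay below all others. It fell by 0.69 (SE 0.17, edgeR adjusted p 0.0149) in Het- against WT-labelled libraries, or by 0.48 (0.128) without Het-labelled replicate 1, and KO- against WT-labelled libraries gave -0.48 (SE 0.17, edgeR adjusted p 0.0643). The fall of Col18a1 in KO- against WT-labelled libraries was called with DESeq2, no filter on low counts, the replicate block and the 4 libraries alone. Col26a1 was at 413 and 411, 526 and 517, 381 and 636, and 619 and 692 CPM and passed no test. Col8a1, a chain of the short-chain network of blood vessel walls and the cornea, had at most 0.37 CPM in any library outside the SmoM2-labelled group, where it reached 3.27 and 2.08 CPM. Its counts were 32 and 18 in that group and at most 4 in any other library, so Col8a1 passed the filter only through that group. The test over all 4 groups called it (edgeR adjusted p 0.0021), which partly restates that filter. With a filter of 10 counts in 4 libraries the call was lost. SmoM2- against WT-labelled libraries (3.35, SE 0.70) did not pass (edgeR adjusted p 0.125). Among the beaded filament genes, none of the 5 tested was called in any comparison.

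**Figure D3:**
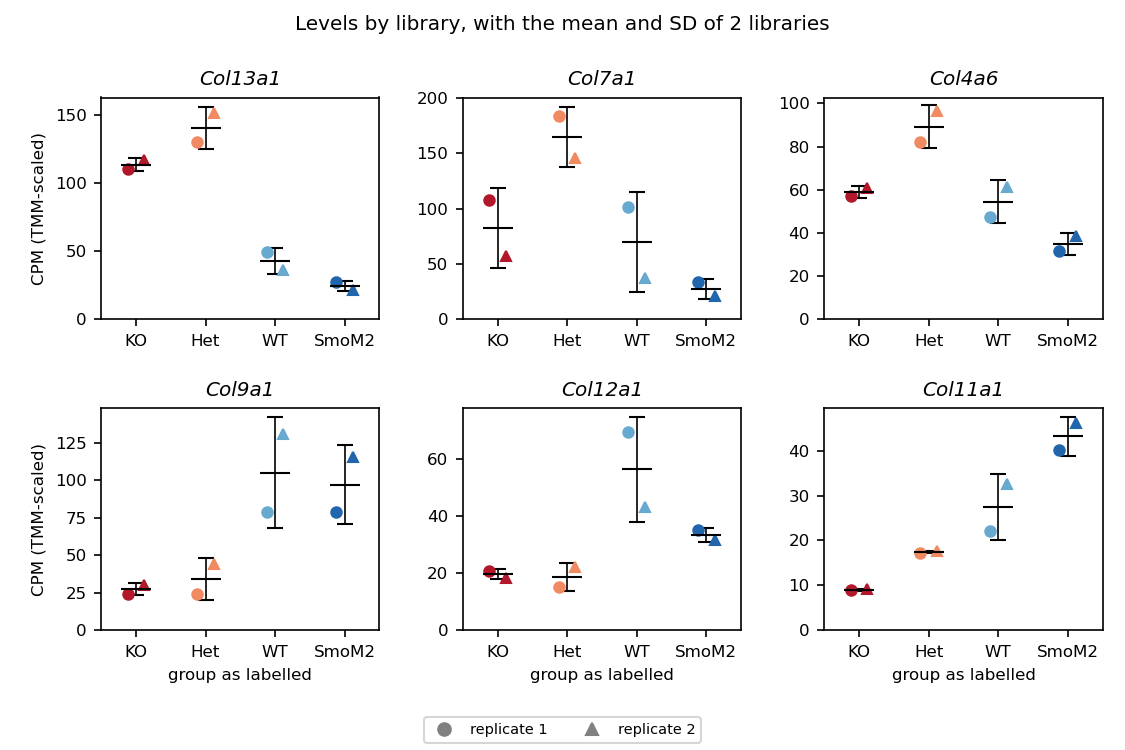
CPM of 6 collagen genes called in at least one test, by group as labelled; circles and triangles are replicates 1 and 2, the horizontal line is the mean and the bar the SD of 2 libraries. Col13a1 is higher in every KO- and Het-labelled library than in every other library, Col9a1 and Col12a1 are lower in them, and Col11a1 goes from 8.86 CPM in the lowest KO-labelled to 46.3 CPM in the highest SmoM2-labelled library.

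To set apart genes that were even between replicates from those that varied with the stroma, the 36 genes averaging at least 1 CPM were classed by their replicate differences. A gene was called steady if its replicates differed by less than 1.5-fold in all 4 groups. This held for 12 of the 36 genes, or 33.3%, against 68.6% of all 13161 genes at this level. The steady genes were Col4a1, Col4a2, Col4a5 and Col4a6 of the basement membrane network, the fibrillar genes Col2a1, Col5a1, Col5a2, Col11a1 and Col27a1, and Col18a1, Col13a1 and Col8a2. Their summed level was 3546 to 5116 CPM per library, of a collagen total of 4692 to 6515 CPM. In 20 further genes the replicates differed by more in some group without following the stroma as defined next, a class that held 30.0% of all genes. With a limit of 1.3-fold, 4 genes were steady (Col4a1, Col4a2, Col4a6 and Col5a1), and with a limit of 2-fold 20 were. Which cells made the RNA of the steady genes was not tested.

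A gene was said to follow the stroma if it differed between replicates in the direction of the summed CPM of 12 stroma markers in all 4 groups, and by at least 1.5-fold in 2 or more groups. Col4a4, Col5a3, Col7a1 and Col25a1 met this rule, 4 of 36 or 11.1% against 1.34% of all genes. Of these, Col4a4, Col5a3 and Col25a1 had at most 35 counts in any library, and among genes of at least 5 CPM only Col7a1 met the rule, 1 of 30 or 3.33% against 0.588% of all such genes. All 12 stroma markers were in the table and none was at 0 throughout. Their sum was 351 and 239 CPM in the KO-labelled, 445 and 409 in the Het-labelled, 544 and 456 in the WT-labelled and 681 and 603 in the SmoM2-labelled libraries. Foxd1 and Mfap4 made up 63.2% to 89.4% of that sum, and without them the order of the Het-labelled replicates was reversed, while that of the other 3 groups was the same. Foxd1 alone was at 12.8 and 3.70, 22.5 and 14.6, 197 and 171, and 385 and 301 CPM in the same order of groups, with no overlap between groups. The rise of the full sum over the groups thus holds that of Foxd1, and the values without both genes overlapped between all groups. With the mean log2 CPM of the 12 markers in place of the sum, or with the sum without Foxd1 and Mfap4, 7 other genes followed, and the share of all genes was 1.89%. These 7 were Col1a1, Col3a1, Col6a1, Col6a2, Col6a3, Col14a1 and Col16a1, none of which met the rule with the full sum. In a bulk library, fewer stromal cells and less RNA per cell cannot be told apart.

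The direction of these 7 genes is fixed by the rule, and their values are given as a description. The stroma sum without Foxd1 and Mfap4 was 129 and 64.7 CPM in the KO-labelled, 62.3 and 97.2 in the Het-labelled, 120.4 and 61.9 in the WT-labelled and 79.6 and 63.8 in the SmoM2-labelled libraries. Col6a2, a chain of the type VI filaments around connective tissue cells, was at 91.2 and 10.4 CPM in the KO-labelled, 9.22 and 29.4 in the Het-labelled, 26.8 and 14.6 in the WT-labelled and 24.1 and 16.3 in the SmoM2-labelled libraries. Both measures were higher in replicate 1 of the KO-, WT- and SmoM2-labelled groups and in replicate 2 of the Het-labelled group. Between the KO-labelled replicates Col1a1 differed by 11.5-fold, Col3a1 by 8.92-fold, Col6a2 by 8.68-fold, Col6a3 by 4.73-fold and Col6a1 by 3.90-fold. Among the markers in the same pair, Dcn differed by 5.08 on the log2 scale, Ogn by 3.14, Postn by 3.04 and Lum by 2.70, while Pdgfrb differed by 0.12. These markers are proteoglycans and matrix proteins of fibroblasts, apart from Pdgfrb, a receptor of mural and stromal cells. In KO-labelled replicate 2, Dcn, Ogn and Lum were each at 0.218 CPM, under the floor of 3 counts (0.653 CPM), so their differences are imprecise. The remaining markers differed by 0.29 (Mfap4) to 1.78 (Foxd1) on the log2 scale between the KO-labelled replicates. Erythroid markers, 6 genes with 1 at 0 throughout, also differed in that pair, at 45.2 and 13.7 CPM. The sums of the 5 early nephron markers went the other way in it, and were higher in replicate 2 of every group. What these differences have to do with the collagen values was not tested beyond the directions given.

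**Figure D4:**
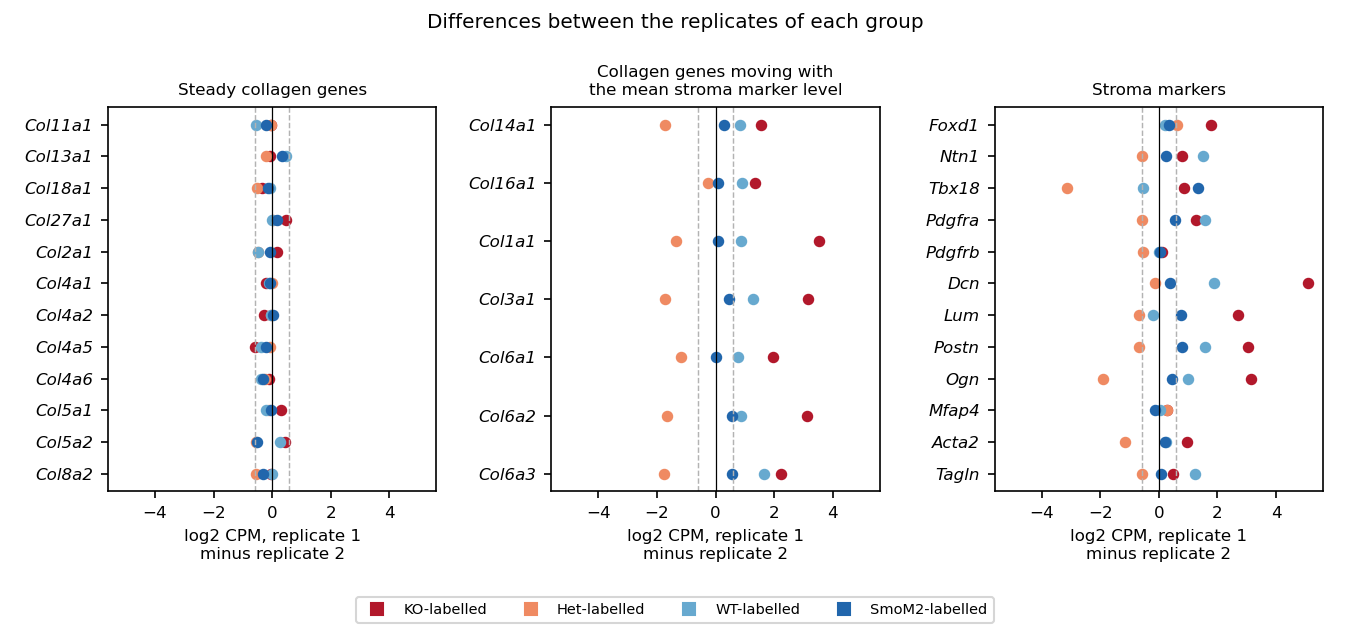
Difference of log2 CPM between replicate 1 and replicate 2 in each group (colours), for the 12 steady collagen genes (left), the 7 collagen genes that moved with the mean level of the stroma markers (middle) and the 12 stroma markers (right); dashed lines mark 1.5-fold. The steady genes lie within the dashed lines, and the 7 genes of the middle panel lie to the right in the KO-labelled and to the left in the Het-labelled group, as Dcn, Postn and Ogn do.

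Tests of the same 39 genes with the mean log2 CPM of the stroma markers as a covariate called 11 genes in KO- against WT-labelled libraries, in place of 7. Of the 11, 6 were higher and 5 lower. The share of all genes called with the covariate is not given, so this count shows nothing particular to collagen genes. With the covariate, Col1a1 was at 1.19 (edgeR adjusted p 0.00969), Col3a1 at 0.83 (0.0128) and Col6a2 at 1.74 (0.00144), all higher in the KO-labelled libraries. These 3 genes are among the 7 that were picked because they moved with that same mean between replicates. The covariate thus takes up their spread by construction, and these p-values are no independent evidence. It also holds Foxd1, at 12.8 and 3.70 CPM in the KO-labelled and 197 and 171 CPM in the WT-labelled libraries, so it is not free of group. Without KO-labelled replicate 1 and without the covariate, Col6a2 was at -0.99 (edgeR adjusted p 0.347) and Col3a1 at -2.03 (0.111), against 1.29 and 0.29 with all libraries. Each of these 3 genes changed sign when KO-labelled replicate 1 was left out, and Col3a1 also without WT-labelled replicate 2 (-0.24, edgeR adjusted p 0.861).

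Proteins that fold, cross-link, degrade or bind collagen were followed through 53 accessory genes, of which 42 were tested. In KO- against WT-labelled libraries none was higher and 6 were lower. In Het- against WT-labelled libraries 7 were higher and 7 lower, in SmoM2- against WT-labelled libraries edgeR called none (9 had an unadjusted p under 0.05), and in KO- against Het-labelled libraries 1 was higher and 6 lower. The shares called were 14.3%, 33.3%, 0% and 16.7%, against 23.0%, 25.3%, 0.223% and 9.43% of all genes. The median log2 changes were -0.16, -0.07, 0.02 and -0.23, against 0.03, -0.02, 0.003 and 0.02 for all genes.

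Folding of procollagen needs prolyl and lysyl hydroxylases and the chaperone Serpinh1 (Hsp47). Serpinh1 was abundant, at 1092 to 1834 CPM, and passed no test. P4ha1, a catalytic subunit of prolyl 4-hydroxylase, was at 54.7 and 63.6 CPM in the KO-labelled, 85.8 and 149 in the Het-labelled, 30.7 and 41.9 in the WT-labelled and 39.0 and 53.3 in the SmoM2-labelled libraries. It rose by 1.69 (SE 0.25, edgeR adjusted p 0.00113) in Het- against WT-labelled libraries, where the Het-labelled values lay above all others. P4ha3, a related subunit, was at 34.8 and 34.2, 47.1 and 51.3, 86.4 and 61.9, and 50.1 and 49.5 CPM and fell in KO- against WT-labelled libraries by 1.11 (SE of 0.17 and edgeR adjusted p 0.00136). The lysyl hydroxylase Plod1 was lower in KO- than in Het-labelled libraries (log2 -0.95, edgeR adjusted p 0.0121, lost without any single KO- or Het-labelled library at 0.0560 to 0.0784), Plod3 was higher in Het- than in WT-labelled libraries (0.57, 0.00634, or 0.31, 0.079 with the GC and length trends removed and 0.48, 0.0765 without Het-labelled replicate 2), and Plod2 passed no test.

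Lysyl oxidase, encoded by Lox, cross-links fibrillar collagen. Lox was at 6.64 and 2.83 CPM in the KO-labelled, 6.02 and 5.27 in the Het-labelled, 23.2 and 13.2 in the WT-labelled and 24.0 and 18.49 in the SmoM2-labelled libraries. It fell by 1.95 (SE 0.38, edgeR adjusted p 0.0052) in KO- and by 1.69 (SE 0.35, 0.00647) in Het- against WT-labelled libraries, with no overlap between these groups. Sparc, a collagen-binding matrix protein, was at 1202 to 2143 CPM and was higher in Het- than in WT-labelled libraries by 0.44 (edgeR adjusted p 0.0257). That call was lost when any of the 4 libraries compared was left out (edgeR adjusted p 0.0668 to 0.241).

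Of the genes for degradation, Mmp2, a gelatinase, was lower in Het- than in WT-labelled libraries (log2 -0.63, edgeR adjusted p 0.0168), a call lost without Het-labelled replicate 1 (-0.47, 0.141) or WT-labelled replicate 2 (-0.52, 0.0751). Mmp2 was at 251 and 313 CPM in the KO-labelled, 198 and 265 in the Het-labelled, 326 and 391 in the WT-labelled and 179 and 197 in the SmoM2-labelled libraries. It changed by -0.93 (SE 0.17, edgeR adjusted p 0.0557) in SmoM2- and by -0.35 (SE 0.16, 0.148) in KO- against WT-labelled libraries. Its activator Mmp14 was at 384 to 480.3 CPM and passed no test. Timp2, an inhibitor of metalloproteinases that also takes part in Mmp2 activation, was at 158 and 127 CPM in the KO-labelled, 179 and 184 in the Het-labelled, 347 and 367 in the WT-labelled and 357 and 367 in the SmoM2-labelled libraries. It fell by 1.33 (SE 0.13, edgeR adjusted p 0.00014) in KO- and by 0.97 (SE 0.13, 0.000557) in Het- against WT-labelled libraries. Mrc2, a receptor that takes up collagen fragments, was lower in KO- than in Het-labelled libraries (log2 -0.74, SE 0.12, edgeR adjusted p 0.00737), or at -0.75 (0.0809) without Het-labelled replicate 1 and at -0.43 (0.0614) with the GC and length trends removed.

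Among the receptors, Itga11, the α subunit of a fibrillar collagen integrin, was at 9.08 and 6.97 CPM in the KO-labelled, 7.22 and 8.49 in the Het-labelled, 30.1 and 30.2 in the WT-labelled and 26.6 and 26.5 in the SmoM2-labelled libraries. It fell by 1.91 (SE 0.21, edgeR adjusted p 0.000253) and by 1.94 (SE 0.20, 0.000134) in KO- and Het- against WT-labelled libraries. Itga10, the α subunit of an integrin of cartilage, was at 11.0 and 15.5 CPM in the Het-labelled libraries and between 3.0 and 5.31 CPM in the other 6. It rose by 1.86 (SE 0.29, edgeR adjusted p 0.0015) in Het- against WT-labelled libraries. Ddr1, a collagen receptor kinase of epithelia, was at 656 and 677 CPM in the Het-labelled and between 326 and 452 CPM in the other libraries. It rose in Het- against WT-labelled libraries, with a log2 change of 0.81 (edgeR adjusted p 0.00177). Ddr2, the related receptor of stromal cells, was at most 3.73 CPM and passed no test.

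Promoter windows of 300 bases, from 250 before to 50 after the RefSeq start (GRCm38.p6), were matched by symbol for 35 of the 44 collagen genes. They were searched on both strands for 4 motifs given by their letters. GACCACCCA, a binding motif of the GLI factors at the end of the Hedgehog pathway, was in none of the 35 and in 0.253% of all 32851 windows. TATAAA was in 5 genes (14.3%) and in 13.6% of all windows, and CCAAT in 13 genes (37.1%) and in 37.4% of all windows. GGGCGG was in 22 genes (62.9%) and in 35.7% of all windows. Of the called genes, Col13a1 and Col11a2 held TATAAA. A match gives only the letters in the window and no evidence of binding.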

How the data were processed

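Counts per gene were taken from the table of the series. Per the file headers, it holds the authors' raw read counts and RPKM values for each library and a gene length. STAR, featureCounts of Subread and the build mm10 are named in the submitters' processing notes, with no versions. The annotation and the strand setting are not given in the sources used here. Counts of a gene and of a transcript that overlaps it on the opposite strand may therefore be mixed. Listed counts made up 81.1% to 83.3% of the library totals that the deposited RPKM values imply.

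Genes were filtered with filterByExpr on the groups and fitted with edgeR 4.0.16 (R 4.3.3) after TMM scaling, with a mean for each group over all 8 libraries and 4 residual degrees of freedom. Biological variation between replicates was 13.5% (edgeR's common coefficient). Tests were two-sided, and standard errors are those that the quasi-likelihood statistic implies. An exact permutation test of 2 libraries against 2 cannot go below 0.333 (two-sided), so none was run. The floor is 3 counts in a library and covers counting error only. Replicate differences used log2 CPM with a prior count of 0.5. The script was tested on simulated data with known changes.

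Collagen genes, their classes, the accessory genes and the markers were chosen with earlier results of these data known. Any collagen gene may be named. Of the accessory genes, those named are Serpinh1, P4ha1, Plod2, Lox, Mmp2, Mmp14, Ddr1, Ddr2, Sparc and up to 4 called genes per comparison and direction with the largest log2 change. The check lists covered nephron progenitors, stroma, endothelium, collecting duct and ureteric bud, early nephron, immune and erythroid cells, and a further list is not reported here. Summed levels per library were 2990.4 to 5013 CPM for nephron progenitors, 9.79 to 20.4 for endothelium, 5.27 to 46.3 for collecting duct and ureteric bud, 13.9 to 46.8 for immune and 2.77 to 45.2 for erythroid markers.

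Alternatives were DESeq2 1.42.0, the library totals implied by RPKM, other filters, a length trend removed per library, the replicate block, the 4 libraries compared alone and each library left out. Chosen after seeing the data were a GC and length trend removed, the stroma markers as a covariate and the stroma sum without Foxd1 and Mfap4. Gene positions are from GENCODE M21, promoter windows from RefSeq.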

Additional observations from a re-analysis of the deposited data

How the results depend on the processing

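Of the results for single collagen genes under single alternatives, 403 kept their side of the threshold, 66 lost a call, 18 gained one and 4 changed sign. Among accessory genes 302 kept their side and 38 lost a call. The sign changes were Col1a1 in KO- against WT-labelled libraries without KO-labelled replicate 1 (-1.78), Col3a1 without KO-labelled replicate 1 (-2.03) or WT-labelled replicate 2 (-0.24) and Col6a2 without KO-labelled replicate 1 (-0.99). Without KO-labelled replicate 2 these genes were at 1.74, 1.13 and 2.13. With no filter on low counts the collagen genes called were 14 in KO- against WT-labelled, 18 in Het- against WT-labelled, 6 in SmoM2- against WT-labelled and 17 in KO- against Het-labelled libraries, and 31 over all 4 groups, in place of 7, 10, 0, 3 and 14. With the length trend removed they were 4 in KO- against WT-labelled and 0 in KO- against Het-labelled libraries, and with the GC and length trends removed 6 in Het- against WT-labelled and 0 in KO- against Het-labelled libraries. With the stroma markers as a covariate they were 11 in KO- against WT-labelled and 7 in KO- against Het-labelled libraries, and 22 over all 4 groups. DESeq2 called 1 in SmoM2- against WT-labelled and 8 in KO- against Het-labelled libraries. In the latter comparison, 10 counts in 4 libraries as the filter, and the 4 libraries alone, each gave 5. The share of all genes called under each alternative is not given, here or elsewhere in the text. These counts therefore show only how the calls depend on the setting, and nothing particular to collagen genes. The causes were not tested.

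Leaving out each library in turn gave 6 to 9 collagen genes in KO- against WT-labelled, 4 to 11 in Het- against WT-labelled, 0 to 4 in SmoM2- against WT-labelled and 0 to 6 in KO- against Het-labelled libraries, and 10 to 18 over all 4 groups. In Het- against WT-labelled libraries 4 remained called without either Het-labelled library and 6 without WT-labelled replicate 1. A lone library of a group was then assumed to vary like the other groups. Steady genes numbered 4 with a limit of 1.3-fold and 20 with 2-fold, in place of 12. Genes that followed the stroma numbered 1 with a limit of 2-fold, with RPKM levels or with at least 5 CPM, and 7 with the mean log2 level or without Foxd1 and Mfap4, in place of 4.

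The labels number the replicates 1 and 2 in each group and do not say that equal numbers share a litter or day. Across genes, the replicate differences of the WT- and SmoM2-labelled groups correlated with r of 0.39, and those of all other pairs of groups with r between -0.061 and 0.0997. In the WT- and SmoM2-labelled groups alike, Xist had at most 5 counts in replicate 1 and at least 12330 in replicate 2. The part of sex in this correlation was not tested. With the replicate block 1 collagen gene was called in SmoM2- against WT-labelled and 5 in KO- against Het-labelled libraries, 9 in KO- against WT-labelled, 12 in Het- against WT-labelled libraries and 18 over all 4 groups. The KO-labelled libraries had the lowest totals, and there 3 counts correspond to 0.664 and 0.653 CPM, so levels under these values could not be told apart.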
